A study of Homo sapiens with 6 samples.

Results

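The 48 genes described here code for proteins that start, extend, cap, cut and recycle actin filaments. They were chosen by name from the 20745 genes of the authors' table. A gene absent from that table would have been dropped, so the presence of all 48 is no result. RNA had been sequenced from AB 8/13 cells, a human podocyte line with a conditional immortalizing gene that lets the cells divide when cool and differentiate when warm. The labels give 3 vehicle cultures and 3 cultures with levamisole at 1 µM, both for 24 h in medium without serum. The methods put the vehicle cultures in complete medium instead, and the titles of the levamisole samples also carry the word control. The AB 8/13 line is a single immortalized line, so the cultures share 1 genetic origin. Levamisole is a drug against parasitic worms that is also prescribed to children with nephrotic syndrome.

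The level used throughout is the authors' mean normalised count, an average over libraries of reads per gene divided by a size factor for each library. The table holds no value per culture, so levamisole and vehicle could not be compared anew from the levels, and no level has a replicate error or an n. The authors' own comparison of the groups, which the same table holds, was not used here. No 2 of the 3744 genes with a mean under 1 shared a value. Over 6 libraries, a mean of 0.5 would stand for about 3 reads, and 1 to 3 whole reads can be spread over 6 libraries in 83 ways, so that values would recur. The 1714 genes under 0.5 nevertheless all differed. The mean may thus cover more libraries than the 6 labelled ones, and other conditions, and the depth of each library is unknown.

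Actin filaments grow mainly at their barbed end and lose subunits at the pointed end. The Arp2/3 complex starts new filaments as branches on old ones once WASP or WAVE proteins switch it on, whereas formins start and extend unbranched filaments. Profilin and thymosin hold free actin monomers, cofilin cuts old filaments, and capping protein stops growth. In podocytes this turnover shapes the foot processes that carry the kidney's filtration slit.

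The 48 actin genes were well above the bulk of the table. They were chosen with earlier results of these data known, so the contrast describes this list only. Their median level was 556 mean normalised counts, beside 21.8 over all 20745 genes, and their middle range ran from 193 to 1341, beside 1.75 to 131 for all genes. All 48 lay above the median of the table. A mean of at least 100 was found for 44 of the 48 genes (91.7%) and for 29.4% of all genes. A mean of at least 1000 was found for 17 of them, beside 3.67% of all genes. The top 10% of the table, from 401 upward, held 29 of the 48 and its top 1% held 6. Per kilobase of transcript the median was 105 for the actin genes and 8.45 for the 20599 genes with a known length, and 47 of the 48 lay above the median. The DIAPH2 gene was the exception on that scale.

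**Figure D1:**
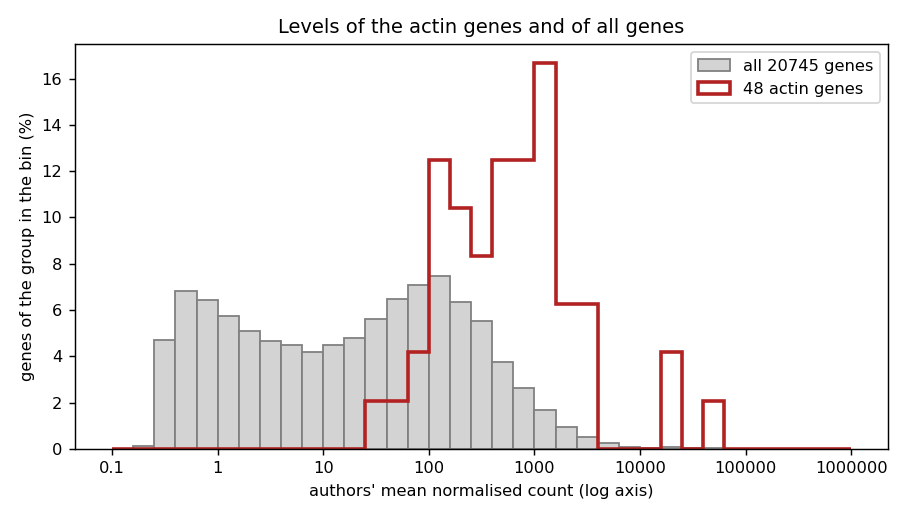
Histogram of the authors' mean normalised count (x axis, log scale) as the percent of genes of each group in each bin (y axis), for all 20745 genes in grey and for the 48 actin genes as a red outline. The outline lies to the right, with medians of 556 and 21.8.

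A few genes carried most of the signal. The 48 genes together took 2.14% of the summed means of the table, although they make up 0.231% of its genes. The 22 mitochondrially encoded genes took 34.8% of the summed means, and without these the share of the 48 genes was 3.28%. Of the sum of the 48 genes, 72.5% came from 3 genes, PFN1, ARPC2 and CFL1, and the other 45 genes shared 27.5%. These 3 genes held the first 3 places both in mean count and per kilobase. From the highest to the lowest of the 48 levels, the span was 1859.7-fold as counted (PFN1 over ARPC1B) and 15011-fold per kilobase (PFN1 over DIAPH2).

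**Figure D2:**
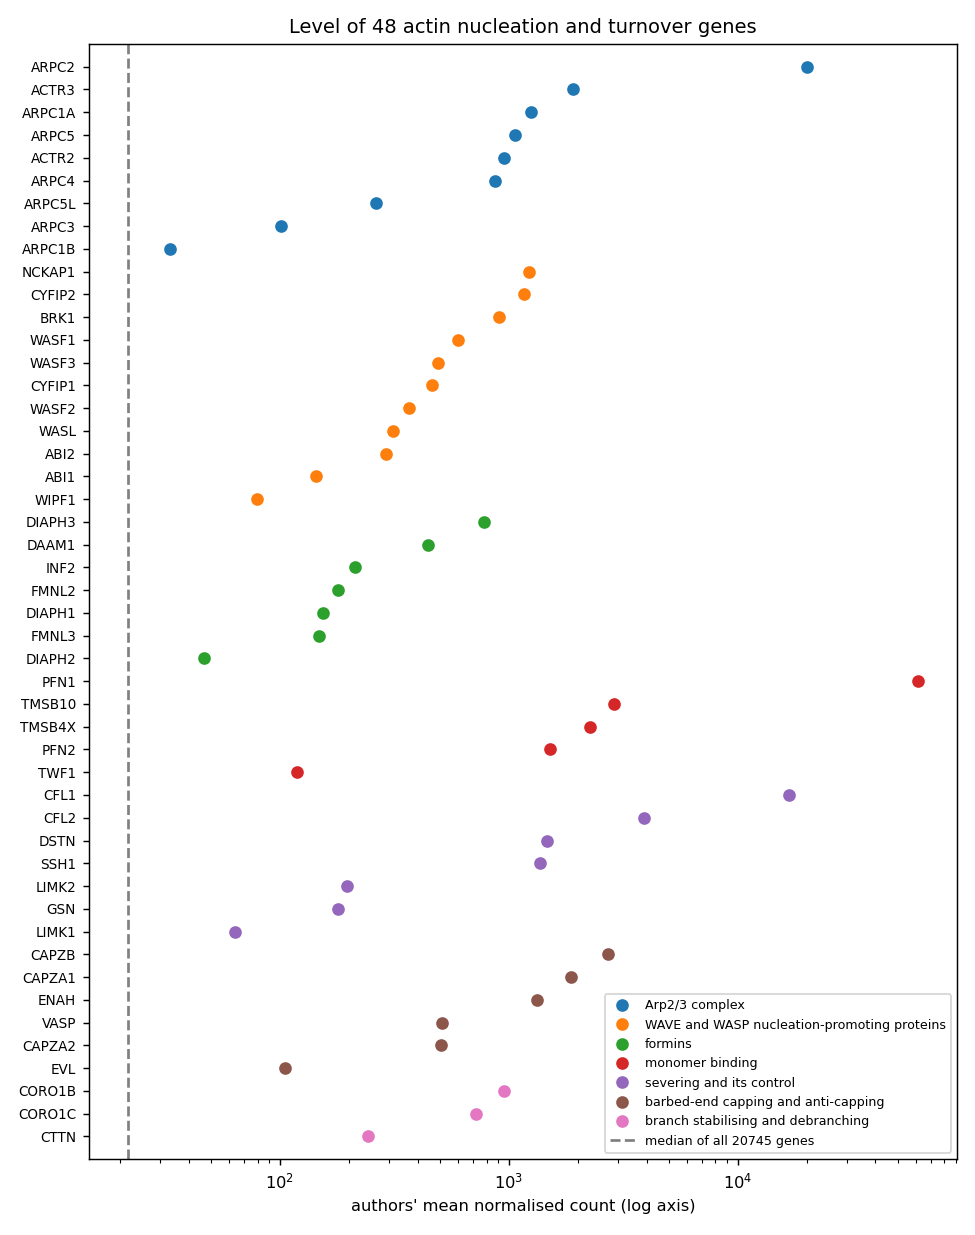
Authors' mean normalised count (x axis, log scale) of each of the 48 genes (y axis), coloured by role and sorted within it, with the median of all genes as a dashed line. PFN1, at 61352, lies furthest right and ARPC1B, at 33.0, furthest left, and all 48 points lie right of the line.

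Proteins that bind actin monomers were led by profilin 1. PFN1 (ENSG00000108518, chromosome 17 of GRCh38, 4945652 to 4949061, minus strand) delivers actin monomers to growing barbed ends. Its mean normalised count was 61352, rank 8 of the whole table, and it alone made up 45.2% of the sum of the 48 genes. The level of its paralogue PFN2 was 1521 mean normalised counts, 40.3-fold less as counted and 102-fold less per kilobase. TMSB10 and TMSB4X code for the small beta-thymosins, which keep monomers out of filaments. TMSB10 stood at 2884 mean normalised counts and TMSB4X at 2263. TWF1, which codes for twinfilin 1, a monomer-binding and capping protein, stood at 119.

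Genes of filament severing were led by cofilin 1. CFL1 (ENSG00000172757, chromosome 11, 65823022 to 65862026, minus strand), the non-muscle cofilin that severs filaments, reached 16838 mean normalised counts. CFL2, best known from muscle, stood at 3889 and DSTN, the related destrin, at 1477. CFL1 made up 75.8% of the cofilin sum as counted and 91.0% per kilobase. Cofilin is switched off by LIM kinases and switched on again by slingshot phosphatases. The phosphatase gene SSH1 stood at 1369 mean normalised counts, and the kinase genes LIMK2 and LIMK1 at 197 and 63.7. The order of SSH1, LIMK2 and LIMK1 was the same per kilobase, at 105, 53.7 and 19.0. The other slingshot genes, SSH3 and SSH2, stood at 205 and 110 mean normalised counts, and at 73.9 and 11.6 per kilobase. On both scales SSH3 lay above LIMK2 and SSH2 below it. GSN, the gene of gelsolin, which severs filaments in response to calcium, stood at 179.3 mean normalised counts.

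The genes of the Arp2/3 complex were uneven. The complex has 7 subunits, and for 2 of them the list holds a pair of paralogous genes. ARPC2 (ENSG00000163466, chromosome 2, 218217141 to 218254356, plus strand), part of the core that binds the mother filament, stood at 20102 mean normalised counts, rank 22 of the table. The actin-related subunits, which form the seed of the branch, stood at 1907 for ACTR3 and 949.7 for ACTR2. Summed over both paralogues, ARPC5 with ARPC5L reached 1329.8 and ARPC1A with ARPC1B 1279, and ARPC4 reached 867. ARPC3 (ENSG00000111229, chromosome 12, 110434823 to 110450422, minus strand) had the lowest level of the 7 subunits, at 101 mean normalised counts. The highest subunit exceeded the lowest by 199-fold as counted and by 133-fold per kilobase, again ARPC2 over ARPC3. Without ARPC2 the span was 18.9-fold as counted and 7.57-fold per kilobase. The low end of these spans is ARPC3, whose level is uncertain because 38.1% of the words at its end recur in the genome. Apart from ARPC2 and ARPC3, the subunits ran only from 867 for ARPC4 to 1907 for ACTR3 as counted.

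**Figure D3:**
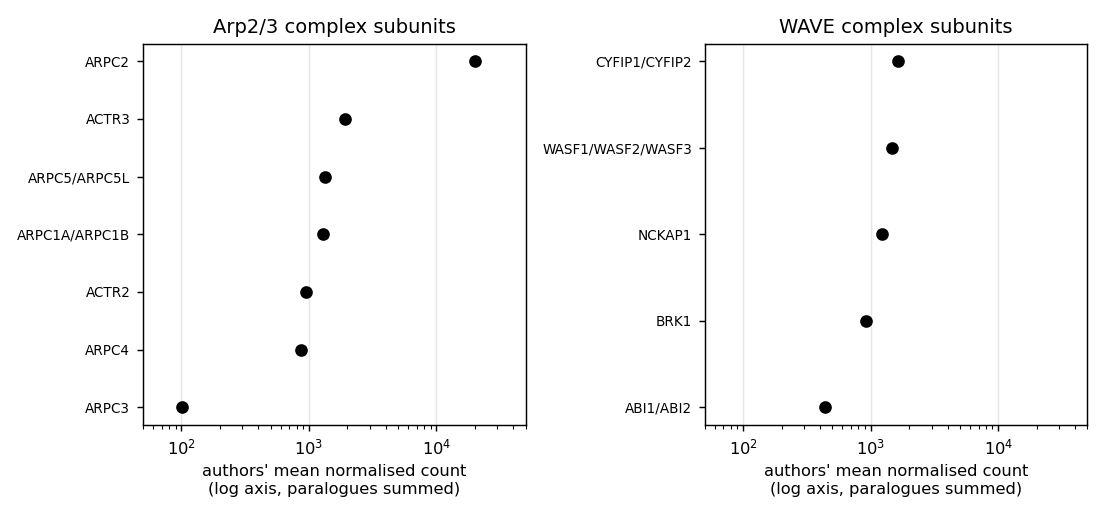
Authors' mean normalised count (x axis, log scale), summed over paralogues, of the 7 Arp2/3 subunits (left) and the 5 WAVE complex subunits (right). The Arp2/3 points run from 101 (ARPC3) to 20102 (ARPC2), and the WAVE points from 434 to 1630.2.

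The WAVE complex, which relays Rac signals to Arp2/3, was more even as counted. Its 5 subunits, with paralogues summed, ran from 434 mean normalised counts for ABI1 with ABI2 to 1630.2 for CYFIP1 with CYFIP2, a span of 3.75-fold. NCKAP1, which pairs with the CYFIP subunit, stood at 1223 and BRK1, the smallest subunit, at 911. Per kilobase the span rose to 13.2-fold, from NCKAP1 to BRK1, since the transcript taken for NCKAP1 is 20.3 kb long and that of BRK1 1.15 kb. All 3 WAVE genes were present, with 602 mean normalised counts for WASF1, 489 for WASF3 and 366 for WASF2. The first place of WASF1 held per kilobase as well, at 209 beside 101 for WASF3 and 64.5 for WASF2. Outside the complex, WASL, the gene of the Cdc42-activated N-WASP, stood at 311, and WIPF1, the gene of its binding partner WIP, at 79.1.

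Formins had the lowest median of the 7 roles. Their 7 genes had a median of 179.7 mean normalised counts, and none reached 1000. DIAPH3 was the highest at 779, followed by DAAM1 at 444 and INF2 at 214. INF2 is a known gene of inherited focal segmental glomerulosclerosis. FMNL2 stood at 179.7, DIAPH1 at 154, FMNL3 at 148 and DIAPH2 at 46.6. DIAPH3 made up 79.5% of the sum of the 3 diaphanous genes as counted and 83.7% per kilobase. The median per kilobase was lowest for the formins among the 7 roles too, at 28.1, whereas the Arp2/3 genes had a median of 251.

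Capping protein binds the barbed end as a dimer of an alpha and a beta subunit. CAPZB, the beta subunit, stood at 2704 mean normalised counts, and the alpha subunits CAPZA1 and CAPZA2 at 1868 and 505. Ena/VASP proteins counter capping and carry profilin-actin to the filament end. In this family ENAH led as counted, at 1332 beside 511 for VASP and 106 for EVL. Per kilobase VASP led, at 228 beside 102 for ENAH and 57.6 for EVL, so no order between ENAH and VASP can be given. Among the genes that act on branches, the coronins CORO1B and CORO1C, which help take branches apart, stood at 955 and 722. CTTN, the gene of cortactin, which holds branches in place, stood at 243.

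Across 14 families of paralogues, the gene with the highest count also led per kilobase in 13, the exception being Ena/VASP. In 2 families the leading gene took at least 80% on both scales, PFN1 among the profilins (97.6% and 99.0%) and ARPC1A over ARPC1B (97.4% and 97.3%). ARPC5 took 80.3% as counted but 58.4% per kilobase. CYFIP2 took 71.7% beside CYFIP1 as counted and 72.8% per kilobase. CAPZA1 took 78.7% beside CAPZA2 as counted and 88.8% per kilobase, whereas ABI2 took 66.8% beside ABI1 as counted and 51.8% per kilobase. Which pairs were most even depended on the scale. As counted these were the FMNL formins (54.8% in the leading gene), thymosins (56.0%) and coronins (56.9%). Per kilobase they were the ABI genes, the coronins (53.4%) and the ARPC5 genes, with 63.2% for the thymosins and 73.1% for the FMNL formins. Neither scale allows for reads lost at repeated or shared transcript ends. Words that recur in the genome made up 71.9% of the TMSB4X end and 24.3% of the PFN1 end. Other genes covered the CORO1B end in full and 66.6% of the ARPC1B end. The part of this in the shares was not tested.

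**Figure D4:**
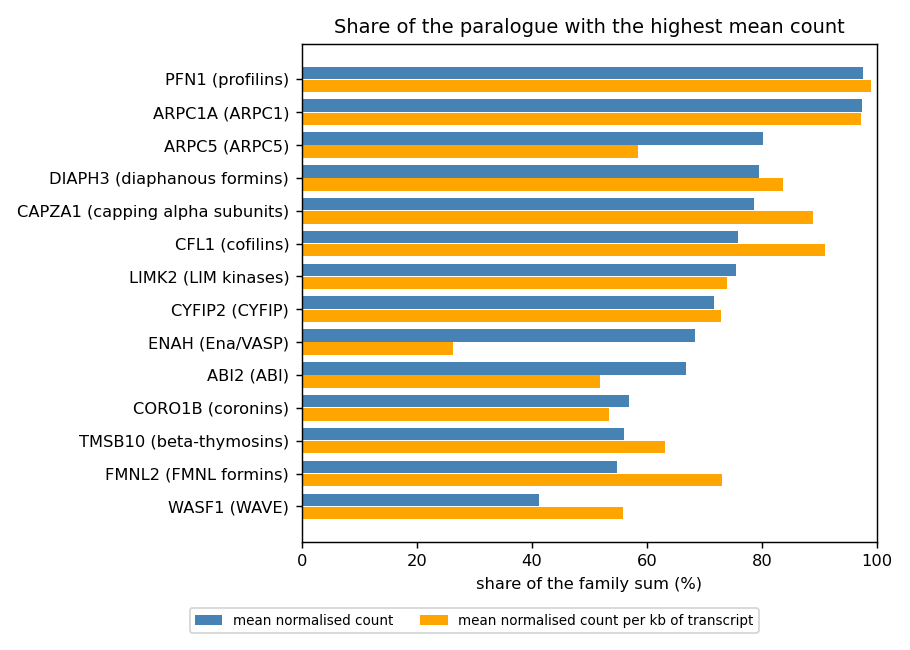
Share of the family sum (x axis, percent) taken by the paralogue with the highest mean count in each of 14 families (y axis), as counted in blue and per kilobase of transcript in orange. The bars of ENAH differ most, with 68.4% as counted and 26.3% per kilobase, where VASP leads.

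The libraries were made by CEL-seq, which starts from the poly(A) tail, so reads come mostly from the end of a transcript and need not grow in number with its length. The last 500 exonic bases of each reference transcript were therefore examined for sequence that recurs elsewhere and for other genes on the same strand, since reads that match several places or several genes go uncounted by default. Words of 60 bases, the length of the mapped read, recurred in the genome for 12 of the 48 genes, and for at least 20% of the words in 4 of them. These were TWF1 (79.6% of words), TMSB4X (71.9%), ARPC3 (38.1%) and PFN1 (24.3%). PFN1 had the highest level of all 48 genes, while TWF1 and ARPC3 were at places 42 and 44 as counted and at places 40 and 23 per kilobase. The levels of these 4 genes are uncertain, and the part of repeated sequence in them was not tested.

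**Figure D5:**
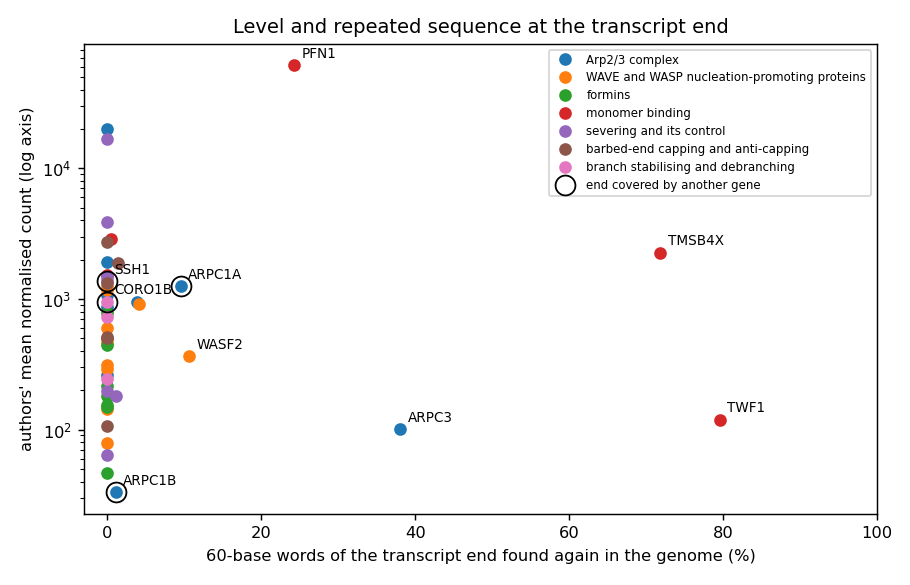
Percent of the 60-base words at the transcript end that occur again in the genome (x axis) and the authors' mean normalised count (y axis, log scale) for the 48 genes, with a ring around the 4 whose end is covered by another gene. Repeated words are found at high (PFN1) and low levels (TWF1, ARPC3), and the 34 genes at 0 without a ring have levels from 46.6 to 20102.

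ARPC1B had the lowest level of the 48 genes as counted and was at place 44 per kilobase. The gene (ARPC1B, ENSG00000130429, chromosome 7, 99374249 to 99394816, plus strand) lies just downstream of ARPC1A (ENSG00000241685, 99325898 to 99366262, same strand). Both code for the ARPC1 subunit, which docks the activators of the complex. A readthrough gene that joins them (ENSG00000284292) covered 66.6% of the last 500 exonic bases of ARPC1B and 25.6% of those of ARPC1A. Its own level was 1.53 mean normalised counts. ARPC1A stood at 1246 mean normalised counts and ARPC1B at 33.0, 37.8-fold apart as counted and 36.1-fold per kilobase. The end of CORO1B was covered in full by PTPRCAP, which is not listed in the table, and 16.2% of the end of SSH1 by a snoRNA gene. For ARPC4, whose end was free, 20.8% of all exonic bases were shared with the readthrough gene ARPC4-TTLL3. The part of these overlaps in the levels was not tested. The 34 genes with neither repeated words nor a covered end had a median of 497 mean normalised counts, and the other 14 had one of 952.

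Pseudogenes named after the 48 genes took few counts. The table holds 10 such entries, for PFN1, CFL1, DSTN, TMSB10 and TMSB4X, with a sum of 121 mean normalised counts. The entry PFN1P1 was the largest, at 62.5, and TMSB4XP4 followed at 39.9. Beside their parents these sums came to 0.103% for PFN1 and 1.82% for TMSB4X. Reads that match a gene and its pseudogene equally go uncounted, so low sums cannot show how many reads were lost. TWF1 and ARPC3 had no such entry.

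Of 62 further nucleation and turnover genes, 54 were listed. At least 100 mean normalised counts were reached by 18 of those listed (33.3%), beside 44 of the 48 actin genes and 29.4% of all genes. The median of those listed was 43.6, beside 556 for the 48 genes and 21.8 over all genes. Both lists were drawn up with earlier results known, so their difference describes the lists and not such genes in general. CAP1, the gene of a cofilin partner that recharges monomers, led at 5373, followed by WDR1, the gene of the cofilin cofactor AIP1, at 1777, WIPF2 at 827, CAP2 at 805 and TMOD3 at 650.1. The 8 genes not listed were WIPF3, GRID2IP, COBL, PFN3, CAPZA3, PDXP, TMOD4 and LMOD2. Of the actin genes themselves, ACTB stood at 35811 mean normalised counts and ACTG1 at 15623, so that PFN1 exceeded both, also per kilobase (76025 beside 19763 for ACTB and 8141 for ACTG1). Repeated words made up 24.3% of the PFN1 end, 17.5% of the ACTB end and 2.72% of the ACTG1 end. Their part in this order was not tested. ACTA2, the smooth muscle form, stood at 1021, and ACTG2, ACTC1 and ACTA1 at 8.05, 4.43 and 2.18.

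Markers of the labelled cell type were low or not listed in part. Of 12 podocyte genes, 10 were listed, and 2 reached 100 mean normalised counts, ACTN4 (14320.5) and CD2AP (929), both of which are expressed in many cells. Of all genes in the table, 29.4% reached 100. SYNPO stood at 22.8, PLA2R1 at 21.8, NES at 18.1, PODXL at 15.3 and WT1 at 6.21, beside a median of 21.8 over all genes. The slit diaphragm gene NPHS1 and the transcription factor gene LMX1B were not listed. Of 6 endothelial markers, 3 were listed (TEK, VWF and CDH5), with a sum of 1.43 mean normalised counts. Of 6 leukocyte and blood markers, 4 were listed (CD14, CD68, PTPRC and CD79A), with a sum of 4.82. Of 6 tubular markers, AQP1 stood at 243 and CUBN and SLC34A1 at 1.22 and 0.900, and the other 3 were not listed. The levels of the actin genes thus come from the same pooled means in which NPHS1 was not listed and WT1 was low.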

How the data were processed

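RNA of 6 AB 8/13 cultures was sequenced by CEL-seq. Per the labels and methods, the authors trimmed reads with Trim Galore (0.4.5), mapped them to GRCh38 with STAR (2.7.5a), counted them with HTSeq (0.11.0) and fitted DESeq2 (1.22.0). The authors deposited 1 table. Its mean normalised count was used as a signal averaged by the authors, not divided by length. Its fold changes, standard errors, test statistics and p-values compare levamisole with vehicle and were not used.

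From the table, ranks, medians, shares and ratios were computed with Python 3.11.15, NumPy 2.4.6 and pandas 2.3.3, and drawn with matplotlib 3.10.9. No test was run. Lengths, positions and transcript ends came from the canonical transcripts of GENCODE 44 on GRCh38, a later annotation than the authors', and 20599 of 20745 identifiers matched. Covering genes with an identifier above the highest one listed by the authors were left out. Exact 60-base words were counted on both strands of the primary chromosomes, with a search tested on simulated sequence. All 48 genes may be named, and of each other list the 5 highest and those not listed, with others named after their values were seen. For 1 gene name with 2 entries, TMSB15B, the higher was taken. The genes and lists were chosen with earlier results of these data known. Results for 1 further list and 1 further marker are not reported here.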

Additional observations from a re-analysis of the deposited data

How the results depend on the processing

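The mean has no error, so any shift of a level, share or span is given as a change. At thresholds of 50 and 200 mean normalised counts, 46 and 35 of the 48 genes passed, beside 44 at 100. Of all genes, 39.9% passed at 50 and 18.6% at 200, beside 29.4% at 100. Per kilobase the median of the genes was 105 in place of 556, the span among subunits 133-fold in place of 199-fold for Arp2/3 and 13.2-fold in place of 3.75-fold for WAVE, and the leading share of ENAH turned to 26.3%, behind VASP. With the higher paralogue only, the span for WAVE was 4.22-fold. Adding pseudogene entries to the Arp2/3 and WAVE spans, chosen after seeing the data, could not change them, since none of these genes has such an entry. Of the summed means, 3.28% in place of 2.14% lay in the genes without mitochondrially encoded genes, 0.482% without the 5 highest genes, and 2.139% with pseudogene entries added. The median percentile was 92.8 among all genes and 88.7 among those with a mean of at least 5. The count of libraries from steps among low values gave no value, since no value under 1 recurred. No paired analysis was possible because the means are not split by culture, and refits, other normalizations and left-out replicates were not run for that reason.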
